A study of Sus scrofa with 22 samples.

Results

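The newborn stage of a pig muscle-like time course was examined for transcripts whose level 1 day after birth lay outside the levels on both sides of it. A probe set was a member when its mean at 1 dpn (days post natum) was at least 1 log2 unit, a 2-fold difference, above the means of both 94 dpc (days post conceptionem, a late fetal stage) and 28 dpn (the suckling stage), or at least 1 unit below both. Of 23999 probe sets, 345 lay above both and 863 lay below both. The same arrays chose the members, so these 2 counts describe the data and test nothing.

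The animals were offspring of German Landrace gilts, and all dams had been fed the adequate protein (AP) diet during gestation. The groups were 6 fetuses at 94 dpc, 6 newborns at 1 dpn, 6 piglets at 28 dpn and 4 animals at 188 dpn, each on 1 Affymetrix porcine array, and all shared breed and maternal diet. Each stage drew on 3 gilts, and the labels do not tie an animal to its dam, so p-values treat littermates as independent and may be too small. The labels name liver and the series title names muscle; of the 30 brightest named genes over all arrays, 8 were in a list of muscle fibre genes while 0 were in a list of hepatocyte genes, so the tissue is called muscle-like here.

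Birth ends the supply of glucose and amino acids through the placenta, and the newborn pig lives on its glycogen and then on the fat and protein of colostrum. Fetal cortisol climbs before birth and acts through the glucocorticoid receptor, and skeletal muscle after birth takes over shivering, posture and breathing movements while its mitochondria multiply. In piglet muscle growth hormone, the insulin-like growth factors (IGF), new capillaries and dividing satellite cells all serve growth.

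The newborn arrays were not alike, and this touches every result below. On the control probe sets for the elongation factor EF1A, the log2 ratio of 5′ to 3′ signal was -0.14 and -0.35 in newborn replicates 1 and 6, against -3.30 to -2.77 in replicates 2 to 5 and -0.90 to -0.07 on the 16 arrays of the other stages. For actin it was -2.31 and -3.37, against -5.03 to -4.69 and -3.34 to -2.07. For GAPDH it was -0.16 and -0.09, against -1.01 to -0.58 in replicates 2 to 5, which overlapped 28 dpn (-0.77 to -0.59). A low ratio is a sign of shortened RNA or of cDNA made only near the 3′ end. Correlations between newborn arrays over all probe sets were 0.882 to 0.931, against 0.961 to 0.968 within 94 dpc and 0.929 to 0.942 within 28 dpn. Newborn replicates 3 and 4 also carried the most hepatocyte marker signal of their stage, a summed 15134 and 10473 against 3171 to 5073 on the other 4 arrays. The same sum was 8226 to 61741 at 94 dpc and 2931 to 16813 at 28 dpn, so these stages reached higher values. Replicate 3 carried a summed pancreas marker signal of 25932, against 3997 to 9975 on the other 5. Values on replicates 1 and 6 alone are therefore given beside many of the members below, and the named members that did not meet the rule there are listed at the end of the gene accounts.

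Members were tested with limma on log2(signal + 16), with Benjamini-Hochberg adjustment over all 23999 probe sets, and a step was called at an adjusted p under 0.05. As background, 1.44% of all probe sets lay above both flanking stages and 3.6% below both, and 1.24% and 3.26% did so with both steps called. Of the 345 above, 297 were called in both steps, and of the 863 below, 782 were. The arrays of these tests are those that chose the members, so the called shares and the counts without overlap largely follow from the choice and support nothing. Counted by the brightest probe set of each of 6765 named genes, 1.98% lay above both and 3.49% below both. By the contrast of 1 dpn against the average of the other 2 stages, 9.05% of all probe sets were called higher and 18.9% lower. The 6 newborn values all lay above the 12 flanking values in 134 of the 345 (background 1.13% of all probe sets) and all below them in 267 of the 863 (background 1.8%). The median smaller step, the smaller of a member's 2 differences, was 1.20 log2 units above and 1.25 below. It reached 2 units in 16 of the members above and 32 of those below. With each array centred on its median, all 345 members above kept the rule but 461 of the 863 below did, and with quantile normalization 310 and 548 did. The share of higher probe sets among those called by the contrast was 32.4% as deposited, 48.4% after quantile normalization and 60.0% after centring, while the median contrast of all probe sets moved from -0.10 to 0.03 and 0.13. In 306 of the 863 members below, the newborn mean was under the background signal.

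Names were available for 193 of the members above (184 genes) and 478 of those below (451 genes). The rule's threshold falls in a dense part of the distribution. Just inside it on the upper side were CANX, GFM1 and NSMCE4A, with smaller steps that round to 1.00, and just outside were PLA2G16, AP1B1 and PSMB4, at 0.99 to 1.00. PSMB4, a proteasome subunit that missed the threshold, had all 6 newborn values above the 12 flanking ones, 12390 to 29283 (median 17033) against 7871 to 10395 (median 8981) and 7837 to 9133 (median 9067). On the lower side, REEP5, DLGAP5 and ATP8B1 lay just inside and SERINC1, EPB41 and CHTF18 just outside.

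On newborn replicates 1 and 6 alone, 177 of the 345 members above (51.3%) and 405 of the 863 below (46.9%) still met the rule. A further share kept both directions without reaching 1 unit, so that 329 above and 765 below kept their direction in both steps, and 16 and 98 had a step that turned. Both values of replicates 1 and 6 lay outside the 12 flanking values in 179 members above and 418 below. No share over all probe sets is set beside these 2 counts, so they only describe the members. For comparison with the counts that met the rule, 1.96% of all probe sets met it above both flanking stages on these 2 arrays. Below both, 5.84% did. With both steps called on these 2 arrays, 123 members above and 339 below remained, against 1.23% and 4.2% of all probe sets. On replicates 2 to 5 alone, 291 and 746 members met the rule, and 123 above and 288 below met it on each subset separately. Members above were lower by a median of 0.41 log2 units on replicates 1 and 6 than on replicates 2 to 5, and members below were higher by 0.60, against a median difference of -0.13 over all probe sets. About 1 in 2 members thus did not reach the threshold on replicates 1 and 6 alone. A mean of 2 arrays is also less precise than one of 4 or 6, and the part of low 5′ signal in this was not tested.

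The 14 leading named rises are those with the largest smaller steps among called probe sets whose newborn values overlapped no flanking value, and 11 of them met the rule on replicates 1 and 6 too. Those encoding mitochondrial proteins are described first. FDX1, a ferredoxin that carries electrons in mitochondria, had newborn signals of 5924 to 8860 (median 7245) against 867 to 1089 (median 1028) at 94 dpc and 1776 to 3227 (median 2064) at 28 dpn. The newborn values stood clear of both other stages on all 6 arrays. The step from 94 dpc was 2.83 ± 0.16 (SE) log2 units and the difference from 28 dpn 1.72 ± 0.16 (SE) (limma adjusted p = 1.4e-10 and 2.3e-07), and replicates 1 and 6 gave 2.66 and 1.55. A dimmer FDX1 probe set gave 1.04 and 0.44, or 0.77 and 0.17 on replicates 1 and 6.

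SLC25A33, a carrier of pyrimidine nucleotides into mitochondria, ranged over 990 to 10489 (median 1835) in newborns, 328 to 485 (median 432) at 94 dpc and 252 to 904 (median 413) at 28 dpn. The highest newborn value, 10489, was that of replicate 1, and the lowest still lay above every value of the other 2 stages. The smaller step was 2.35 over 6 arrays and 3.63 over replicates 1 and 6. MCUR1, a regulator of the mitochondrial calcium uniporter, ranged over 587 to 1914 (median 958) in newborns against 215 to 362 (median 310) and 190 to 410 (median 263), with a smaller step of 1.67 and, on replicates 1 and 6, 2.21. COQ6, which helps to make coenzyme Q, ranged over 1239 to 2197 (median 1884) against 327 to 566 (median 487) and 380 to 656 (median 516), with a smaller step of 1.72, or 1.28 on the 2 arrays. A brighter COQ6 probe set rose by 2.16 from 94 dpc and stood 0.80 above 28 dpn. A dimmer COQ6 probe set differed by -0.74 and 0.10. MPC2, a subunit of the mitochondrial pyruvate carrier, was far brighter on replicates 2 to 5 than on the other 2 newborn arrays. Its newborn signals were 18366 to 55878 (median 50672), of which replicates 1 and 6 gave 18366 and 25193, against 5910 to 7516 (median 6548) and 9428 to 16252 (median 13670). Its smaller step fell from 1.60 to 0.74 on those 2 arrays, so MPC2 did not meet the rule there.

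Most oxidative phosphorylation genes were higher in newborns than at 94 dpc, and few met the rule. Of 54 genes measured by their brightest probe set, 43 were called higher by the contrast with the average of both stages. The background was 15.2% of 6765 named genes. By the same contrast 1 was called lower (background 19.8%). Relative to 94 dpc 49 were called higher (background 2626 of 23999 probe sets). Relative to 28 dpn 15 were called higher (background 2013) and 2 lower (background 3344). Of the 54, 4 (NDUFC1, NDUFC2, COX7A2 and ATP5I) met the rule with both steps called, against a background of 1.7%. The median step from 94 dpc was 1.22 and the median difference from 28 dpn 0.30, against -0.05 and -0.04 over all named genes. On replicates 1 and 6, 14 of the 54 were called higher (background 10.5%) and the median contrast was 0.45 in place of 0.74. ATP5I, a small subunit of ATP synthase, ranged over 4874 to 23450 (median 17939) in newborns against 202 to 788 (median 598) and 749 to 6015 (median 2311). Here newborn replicates 1 and 6 (4874 and 5557) overlapped the highest 28 dpn value. COX7A2, a subunit of cytochrome c oxidase, ranged over 15990 to 36862 (median 29877) against 9469 to 11843 (median 10208) and 5306 to 10484 (median 8116) without overlap, with a smaller step of 1.45 and 1.05 on the 2 arrays. The complex I subunits NDUFC1 and NDUFC2 did not hold there: their differences from 28 dpn on replicates 1 and 6 were -0.11 and 0.26. For NDUFA1, another complex I subunit, the leading probe set rose (1.96 as its smaller step), while a brighter probe set of the gene rose by 1.54 from 94 dpc and stood 0.55 above 28 dpn, which misses the rule.

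Genes for burning fat were higher than at 94 dpc too. In the list of fat fuel genes and targets of the fatty acid receptors PPAR, 17 of 24 genes were called higher (background 15.2%). This was by the contrast, which called 1 lower and had a median of 0.92 against -0.05 over all named genes. Relative to 94 dpc 19 were called higher (background 2626 of 23999 probe sets). Relative to 28 dpn 7 were called higher (background 2013) and 2 lower (background 3344). The median step was 1.41 from 94 dpc and the median difference from 28 dpn 0.30. CPT1B, which admits long-chain fatty acids to muscle mitochondria, ranged over 4772 to 8546 (median 7612) in newborns, 643 to 983 (median 848) at 94 dpc and 1832 to 4384 (median 2872) at 28 dpn. No newborn value overlapped another stage, and the differences were 3.04 ± 0.25 (SE) and 1.31 ± 0.25 (SE) log2 units (limma adjusted p = 2e-08 and 0.00058). ACADVL, the dehydrogenase that starts the oxidation of very long chains, ranged over 14025 to 20933 (median 19249) against 2581 to 3994 (median 3313) and 3532 to 11223 (median 7321), also without overlap. Both met the rule on replicates 1 and 6, with smaller steps of 1.18 and 1.25. A dimmer ACADVL probe set rose by 2.02 from 94 dpc but stood 0.06 above 28 dpn, or 0.74 on replicates 1 and 6. FABP3, the fatty acid carrier of muscle cytosol, met the rule over 6 arrays (1.02) but overlapped 28 dpn, with newborn signals of 25312 to 59970 (median 51567) against 9964 to 42458 (median 25158), and gave 0.53 on the 2 arrays. At 188 dpn the 4 CPT1B values were 634, 279, 735 and 789, close to the fetal ones and all below every newborn value. UCP3, an uncoupling protein of muscle mitochondria in the same list, rose by 2.35 from 94 dpc and differed by -0.65 from 28 dpn, which was not called (limma adjusted p = 0.0567).

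Heat shock proteins and chaperones had 7 of 32 genes above both stages and called in both steps, none below (background 1.7% of named genes above and called), with 18 called higher (background 15.2%) and 3 lower (background 19.8%). The list's median contrast was 0.55 over 6 arrays and 0.99 on replicates 1 and 6, where 21 were called higher (background 10.5%). HSPB7, a small heat shock protein of heart and skeletal muscle, ranged over 5664 to 10673 (median 8043) in newborns, 472 to 816 (median 630) at 94 dpc and 882 to 3617 (median 1553) at 28 dpn. All 6 newborn values exceeded the other 12. The differences were 3.67 ± 0.34 (SE) and 2.30 ± 0.34 (SE) log2 units (limma adjusted p = 7.9e-08 and 4.8e-05), and replicates 1 and 6 gave 3.70 and 2.33. HSPB6, a second small heat shock protein, ranged over 6242 to 12262 (median 9093) against 1820 to 2664 (median 2245) and 2477 to 7173 (median 3774), with an overlap at 28 dpn, and its smaller step was 1.24, or 0.84 on the 2 arrays. A dimmer HSPB6 probe set lay below both stages, by -0.72 and -1.15. The inducible HSP70.2, whose probes may be shared with near-identical HSP70 copies, ranged over 5828 to 16575 (median 12104) against 2645 to 5981 (median 4163) and 3778 to 6873 (median 5005). Its smaller step was larger on replicates 1 and 6 (1.66) than over 6 arrays (1.14), and its 188 dpn values, 29513, 28571, 18193 and 31588, were all above the newborn ones. The co-chaperones DNAJA4 and DNAJB6 had smaller steps of 1.23 and 1.23, and 1.96 and 1.29 on the 2 arrays. BAG3, a co-chaperone in the removal of damaged sarcomere proteins, missed the rule over 6 arrays (0.83 from 28 dpn) and reached 1.79 on replicates 1 and 6. The chaperones did not move as 1 block: HSP90B1 of the endoplasmic reticulum stood -1.19 from 94 dpc and HSPA4 -0.89 from 28 dpn, and DNAJB1 and HSP90B1 were both called lower by the contrast, as was HSPA4.

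The mitochondrial chaperones were among these genes. HSPE1, the lid of the mitochondrial folding chamber, ranged over 15639 to 59991 (median 45336) in newborns against 10831 to 15071 (median 14067) and 7619 to 14899 (median 11151), with replicate 1 at 15639 well below the other newborn arrays and a smaller step of 1.55, or 0.84 on replicates 1 and 6. HSPA9, the Hsp70 of the mitochondrial matrix, ranged over 11224 to 24643 (median 21056) against 3535 to 5645 (median 4978) and 7274 to 9752 (median 8732), with no overlap. Its difference from 28 dpn on replicates 1 and 6 was 0.96, just short of the rule. A list of 39 genes for mitochondrial chaperones, protein import and assembly, written after these values were seen, had 10 members above both stages and called and 26 called higher. A list of 61 genes for the mitochondrial ribosome and translation, also written afterwards, had 7 and 32. Since they were chosen on these values, the counts only describe which relatives moved. Among them DNAJA3, LETM1, OXA1L and TSFM, which serve folding, ion exchange, membrane insertion and elongation in mitochondria, had newborn values above all 12 others. OXA1L ranged over 12455 to 20210 (median 17595) against 5012 to 6968 (median 6173) and 7566 to 10008 (median 8400), and LETM1 had a smaller step of 1.07 over 6 arrays and 1.45 on replicates 1 and 6. In the tricarboxylic acid cycle 15 of 25 genes were called higher by the contrast (background 15.2%) and 0 lower, with a median of 0.55. Relative to 94 dpc 22 were called higher (background 2626 of 23999 probe sets). Relative to 28 dpn 4 were called higher (background 2013) and 3 lower (background 3344). The median step was 1.41 from 94 dpc and the median difference from 28 dpn 0.05. By the contrast on replicates 1 and 6, 7 were called higher (background 10.5%), with a median of 0.32. IDH3B, a subunit of isocitrate dehydrogenase, met the rule on all arrays and on the 2 (1.37 and 1.23).

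The antioxidant, metallothionein and iron list was mixed. Of 26 genes 7 were called higher (background 15.2%) and 5 lower (background 19.8%) by the contrast, with a median of -0.02. TXNRD1 met the rule above and ALDH2 below. TXN, thioredoxin, ranged over 689 to 2415 (median 1539) in newborns against 204 to 407 (median 303) and 212 to 360 (median 273), without overlap. The 4 values at 188 dpn were 291, 260, 274 and 249, all below the newborn ones. Its differences were 2.21 ± 0.24 (SE) and 2.28 ± 0.24 (SE) log2 units (limma adjusted p = 4.6e-07 and 8.2e-07), and 2.08 and 2.15 on replicates 1 and 6. A brighter TXN probe set gave 0.70 and 0.96. TXNRD1, which reduces thioredoxin, had a smaller step of 1.16, and 0.86 on the 2 arrays. PHGDH and MTHFD2, enzymes of serine synthesis and of the mitochondrial folate cycle, had smaller steps of 1.35 and 1.11, and PCK2, the mitochondrial enzyme that makes phosphoenolpyruvate, 1.92. PCK2 gave 1.61 on replicates 1 and 6 but was not called in both steps there. Of 18 cytosolic aminoacyl-tRNA synthetases, a list written after the values were seen, AARS, MARS and VARS lay above both stages and were called. VARS, which loads valine, ranged over 1022 to 1538 (median 1315) in newborns against 433 to 615 (median 489) and 451 to 876 (median 534), with no overlap. SRM, which makes spermidine, had a smaller step of 1.18, and 1.52 on replicates 1 and 6.

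Proteasome genes were called higher more often on replicates 1 and 6 than over all 6 arrays. Of 34 proteasome and atrophy genes, PSMA7, a subunit of the catalytic core, met the rule above and PSME1, an interferon-responsive activator subunit, below. PSMA7 ranged over 27752 to 53683 (median 44256) against 15088 to 19761 (median 17794) and 16979 to 21565 (median 19121), without overlap, but its smaller step went from 1.09 to 0.67 on replicates 1 and 6, and that of PSME1 from 1.17 to 0.61, so neither met the rule there. By the contrast 18 were called higher over 6 arrays (background 15.2%), with a median of 0.50, and 27 on replicates 1 and 6 (background 10.5%), with a median of 1.01.

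Glucocorticoid response genes were more often higher than lower, and the receptor itself was low. Of 24 measured genes 12 were called higher by the contrast (background 15.2%) and 1 lower (background 19.8%), with a median of 0.69. CEBPD, a transcription factor induced by glucocorticoids, was the member called above both stages, at 246 to 1303 (median 599) in newborns against 59.3 to 120 (median 72.2) and 45.3 to 339 (median 91.7). The highest 28 dpn value overlapped the newborn range, and the differences on replicates 1 and 6 were 2.87 and 2.34. FKBP5, a chaperone of the receptor and a classical target, rose from 70.5 to 107 (median 90.7) at 94 dpc to 614 to 2212 (median 1051) in newborns, 3.47 ± 0.45 (SE) log2 units (limma adjusted p = 3.9e-06). It met the rule, yet its difference from 28 dpn, 1.08 ± 0.45 (SE), was not called (adjusted p = 0.089), and its 188 dpn values of 552, 1266, 4120 and 2613 covered the newborn range. PDK4, which switches muscle from glucose to fat, rose by 4.76 from 94 dpc and differed by 0.28 from 28 dpn (limma adjusted p = 0.739), so it did not meet the rule. The receptor NR3C1 had the largest smaller step of the named falls (2.90). Its signals were 12.1 to 256 (median 54.9) in newborns against 485 to 610 (median 562) at 94 dpc, 443 to 688 (median 511) at 28 dpn and 472, 472, 599 and 533 at 188 dpn. The newborn values lay below all 16 others, and 3 of them were under the background signal of 69.7. Replicates 1 and 6 gave 256 and 86.5, differences of -1.77 and -1.71. The other 3 NR3C1 probe sets gave smaller differences, from -0.65 to -0.06 from 94 dpc and from -0.73 to 0.02 from 28 dpn, so the size of this fall rests on 1 probe set. On replicates 1 and 6 one of them gave -1.58 and -1.80.

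Further named rises came from several lists. ANKRD1, a titin-bound stress sensor, ranged over 1417 to 14182 (median 4039) in newborns against 365 to 923 (median 656) and 139 to 2100 (median 753), and the 2 highest newborn values, 14182 and 12725, were those of replicates 1 and 6, while the lowest overlapped 28 dpn. The smaller step was 2.77 over 6 arrays and 4.32 on those 2, and a second probe set also met the rule (2.23 and 1.40). At 188 dpn it was high again, at 16516, 18661, 2438 and 12660. XIRP1, an actin-binding protein of muscle attachment and repair, had 1 newborn array far above the rest, 12240 in replicate 1 against 1769 to 3914 in the other 5, and overlapped 28 dpn. LMCD1, a LIM-domain protein of striated muscle, ranged over 14886 to 19194 (median 16364) against 2009 to 4481 (median 3554) and 2313 to 9325 (median 4691), with no overlap and a smaller step of 1.75 and 1.75. A dimmer LMCD1 probe set differed by 1.16 from 94 dpc and -0.39 from 28 dpn, or 2.85 and 1.30 on replicates 1 and 6. AGT, angiotensinogen, ranged over 2290 to 10287 (median 5110) against 120 to 873 (median 436) and 883 to 2567 (median 1617), with 1 newborn value inside the 28 dpn range and a smaller step of 1.56 and 1.86.

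Among the other leading rises, MYO5B, a myosin that moves membrane vesicles, had the largest smaller step, 3.14. Its signals were 868 to 2191 (median 1515) in newborns against 45.3 to 187 (median 133), 21.6 to 371 (median 223) and, at 188 dpn, 35.2, 88.8, 56.5 and 263, and the newborn values stood clear of all 16 others (limma adjusted p = 9.8e-06 and 6.5e-05 for the 2 steps). MLLT11 ranged over 1126 to 4477 (median 2905) against 220 to 487 (median 411) and 468 to 807 (median 659), and ABHD18 over 181 to 740 (median 462) against 55.9 to 114 (median 68.7) and 100 to 171 (median 121). The probe sets annotated to the elongation factor EF1ALPHA and to the RNA-binding protein PCBP2 differed between the newborn arrays with low and even 5′ signal. Their smaller steps were 2.14 and 1.97 on replicates 2 to 5 and 0.77 and 0.97 on replicates 1 and 6. The brightest probe set of each gene stood 0.43 and 0.14 above 94 dpc and differed by 0.19 and -0.48 from 28 dpn. A further bright EF1ALPHA probe set differed by -0.23 from 94 dpc and -2.54 from 28 dpn. CDKN3, a phosphatase that acts on cyclin-dependent kinases, was the gene of the cell cycle list that rose, at 1376 to 3085 (median 1898) in newborns against 589 to 839 (median 784) and 167 to 284 (median 236). PAX3, a regulator of muscle progenitors, was under background on all 94 dpc arrays, at 5.22 to 23.0 (median 9.45), and ranged over 55.5 to 126 (median 70.5) in newborns, at least 1.08-fold higher, with 3 newborn values themselves under background. As log2(signal + 16) the newborn range was 6.16 to 7.15, and 28 dpn replicate 5 (6.65) and 188 dpn replicates 1 and 3 (6.30 and 6.58) lay inside it. Another PAX3 probe set rose by 1.38 from 94 dpc but differed by -0.05 from 28 dpn, or 0.70 and -0.73 on newborn replicates 1 and 6.

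Some genes of the growth axis fell. Of 17 growth hormone and IGF genes, IGF1, GHR and IGFBP2 lay below both stages and were called in both steps (background 3.27% of 6765 named genes), 4 were called lower by the contrast, a share near the background of 19.8%, and 0 higher. IGF1, the main mediator of growth hormone, had newborn signals of 14.1 to 109 (median 32.0) against 202 to 288 (median 256) at 94 dpc and 168 to 344 (median 231) at 28 dpn. No value overlapped, and 5 of 6 newborn values were under background. The differences were -2.29 ± 0.27 (SE) and -2.18 ± 0.27 (SE) log2 units (limma adjusted p = 1.2e-06 and 5.9e-06). Both values of replicates 1 and 6 (14.1 and 109) lay below the other stages. Another IGF1 probe set gave -0.70 and -0.80, or -0.35 and -0.45 on replicates 1 and 6. A further IGF1 probe set lay above both stages, by 0.90 and 0.48, or 0.44 and 0.02 on replicates 1 and 6. Neither met the rule, so the size of the IGF1 fall rests on 1 probe set. GHR, the growth hormone receptor, ranged over 15.6 to 429 (median 60.7) against 175 to 377 (median 296) and 362 to 782 (median 468). Newborn replicate 1, at 429, lay above every 94 dpc value and within 28 dpn, while replicate 6, the other array with even 5′ signal, gave 36.2. GHR did not meet the rule on those 2 arrays, with differences of -0.97 and -1.70. IGFBP2, an IGF-binding protein, ranged over 17.0 to 182 (median 110) against 299 to 602 (median 451) and 158 to 262 (median 231), and its difference from 28 dpn was -0.41 on the 2 arrays. For IGF2, the fetal growth factor, the probe sets disagreed: the member fell to 119 to 312 (median 144) from 668 to 1267 (median 959) and stood below 354 to 1486 (median 519), the brightest one fell by 1.34 from 94 dpc but stood 0.62 above 28 dpn, and a pair lay above both stages but not on replicates 1 and 6.

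Some regulators of muscle growth were low as well. MSTN, myostatin, the inhibitor of muscle growth, was under background on all 6 newborn arrays, at 4.07 to 62.4 (median 16.9) against 159 to 262 (median 211) at 94 dpc and 70.0 to 203 (median 144) at 28 dpn, so it was at least 2.61-fold and 1.68-fold lower than those stages. It was back at 275, 261, 334 and 193 at 188 dpn. MEF2A, a transcription factor of muscle differentiation, ranged over 124 to 306 (median 153) against 480 to 714 (median 603) and 619 to 786 (median 676) and was 1577, 1920, 1673 and 1661 at 188 dpn. Its smaller step was 1.71 over 6 arrays and 1.73 on replicates 1 and 6. A brighter MEF2A probe set missed the rule over 6 arrays (-0.71 and -0.75) and gave -1.55 and -1.58 on replicates 1 and 6. The relative MEF2D lay above both stages (1.12, and 0.84 on the 2 arrays). MDK, midkine, a growth factor of fetal tissues, fell from 3338 to 3724 (median 3592) at 94 dpc to 16.5 to 169 (median 115) in newborns and stood at 195 to 703 (median 630) at 28 dpn. RBPJ, the nuclear effector of Notch signalling, ranged over 77.1 to 353 (median 137) against 878 to 1321 (median 1064) and 658 to 841 (median 739), and 3 of its probe sets met the rule.

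Endothelial marker signal was lower in newborns than in fetuses or piglets. Of 18 endothelial genes, TIE1, CLDN5, RAMP2 and ANGPT2 lay below both stages and were called (background 3.27%), and 10 were called lower by the contrast (background 19.8%) and 0 higher. The summed signal of the list was 8177 to 9384 on the newborn arrays, against 19085 to 22262 at 94 dpc, 11681 to 16617 at 28 dpn and 5315 to 7211 at 188 dpn, and replicates 1 and 6 gave 9384 and 8177. Fewer endothelial cells and less RNA per cell cannot be told apart in such tissue samples. TIE1, a receptor of the angiopoietin system, ranged over 6.98 to 110 (median 39.6) in newborns against 279 to 358 (median 306) and 128 to 332 (median 213), and ANGPT2, a ligand of that system, over 19.0 to 83.0 (median 38.9) against 213 to 319 (median 276) and 143 to 277 (median 220). Both were free of overlap, and on replicates 1 and 6 their smaller steps were 3.09 and 1.77. In each gene 4 of the 6 newborn values were under background, among them TIE1 in replicates 1 and 6 (16.4 and 6.98), so the size of these steps is uncertain. CLDN5, the claudin of endothelial tight junctions, ranged over 318 to 508 (median 435) against 1472 to 2136 (median 1778) and 908 to 1469 (median 1248), with differences of -2.01 ± 0.17 (SE) and -1.43 ± 0.17 (SE) log2 units (limma adjusted p = 2e-08 and 2.8e-06) and, on the 2 arrays, -2.01 and -1.43. Its 188 dpn values, 468, 296, 459 and 357, were as low as the newborn ones. The probe sets of PECAM1, an adhesion molecule of endothelium, differed in size, with a smaller step of 2.14 in the leading one and 0.92 in a brighter one. ENG, LYVE1 and RAMP3 of the list had newborn means above those of 28 dpn.

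Of 31 matrix genes 25 were called lower than at 94 dpc (background 5210 of 23999 probe sets). Relative to 28 dpn 3 were called lower (background 3344) and 3 higher (background 2013). By the contrast 17 were called lower (background 19.8%) and 0 higher. COL1A2 and COL5A2 alone met the rule with both steps called (background 3.27%), and the median difference from 28 dpn was -0.15 against -1.07 from 94 dpc. COL1A2, a chain of type I collagen, ranged over 363 to 854 (median 482) in newborns against 1641 to 3700 (median 2215) and 832 to 2333 (median 1846). Only the lowest 28 dpn value overlapped, and the 188 dpn values, 538, 467, 403 and 351, were as low as the newborn ones. The summed signal of 11 fibroblast markers, COL1A2 among them, was 18279 to 28031 in newborns, 48588 to 73215 at 94 dpc and 18849 to 35701 at 28 dpn, and its part in the matrix result was not tested. COL5A2, a minor fibrillar collagen chain, was under background on all 6 newborn arrays, at least 2.73-fold and 1.58-fold lower than at 94 dpc and 28 dpn, and its smaller step was 0.71 on replicates 1 and 6. LAMB1, a laminin chain of basement membranes, ranged over 58.5 to 198 (median 76.5) against 375 to 544 (median 467) and 347 to 551 (median 411), whereas a brighter LAMB1 probe set stood 0.10 above 28 dpn.

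Part of the antigen presentation genes were lower in newborns than at both other stages. In the interferon and antigen presentation list 8 of 38 genes lay below both stages and were called (background 3.27%), and 16 were called lower by the contrast (background 19.8%), with a median step of 0.03 from 94 dpc and a median difference of -1.29 from 28 dpn. On replicates 1 and 6, 4 of the 38 met the rule and 8 were called lower (background 14.1%). The members over 6 arrays were the class II genes SLA-DRA, SLA-DRB1 and SLA-DQA1, their chaperone CD74, the myeloid transcription factor IRF8, the interferon-induced GTPase GBP2 and the RNA sensors EIF2AK2 and DDX58. SLA-DQA1 ranged over 292 to 839 (median 440) against 1099 to 1618 (median 1415) and 1194 to 2771 (median 2346) without overlap, and CD74 over 23.5 to 164 (median 132) against 194 to 360 (median 258) and 311 to 926 (median 773). On replicates 1 and 6 the fall from 94 dpc was smaller, at -1.03 for SLA-DQA1 and -0.76 for CD74, and -0.29 for SLA-DRA. In the list of 18 macrophage and myeloid genes, LAPTM5 and FCGR3A lay below both stages and 6 genes were called lower by the contrast (background 19.8%) and 1 higher. None was called lower on replicates 1 and 6 (limma, 0 of 18), where LAPTM5 met the rule without both steps called and the smaller step of FCGR3A was 0.46. The summed signal of that list was 3855 to 6368 in newborns, 5634 to 7145 at 94 dpc and 4895 to 18024 at 28 dpn, and its part in the antigen presentation result was not tested. Of 13 lymphocyte genes, 0 met the rule.

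Of 31 cell cycle genes 26 were called lower than at 94 dpc (background 5210 of 23999 probe sets). Relative to 28 dpn 10 were called lower (background 3344) and 4 higher (background 2013). CKS2, UBE2C, AURKB, MAD2L1 and TYMS lay below both stages and were called in both steps (background 3.27%), 21 were called lower by the contrast (background 19.8%) and CDKN3 alone was called higher. The median step from 94 dpc was -1.74 and the median difference from 28 dpn -0.50, and on replicates 1 and 6, 19 were called lower (background 14.1%). AURKB, a mitotic kinase, ranged over 15.7 to 157 (median 39.5) in newborns, 415 to 485 (median 461) at 94 dpc, 128 to 279 (median 201) at 28 dpn and 80.9, 21.3, 29.3 and 84.7 at 188 dpn. CKS2, a partner of mitotic kinases, ranged over 170 to 513 (median 218), 1578 to 2163 (median 2000) and 275 to 785 (median 575) at the first 3 of these stages in the same order. In both genes 1 newborn value overlapped 28 dpn. TYMS, which makes the thymidylate of new DNA, was under background on all 6 newborn arrays, at least 1.71-fold lower than at 94 dpc and 1.34-fold lower than at 28 dpn.

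Some genes of metabolism and of the sarcomere were lowest in newborns. STBD1, which tethers glycogen to membranes, ranged over 700 to 1940 (median 1038) in newborns against 3313 to 4201 (median 3670), 5935 to 10003 (median 7381) and, at 188 dpn, 13515, 11723, 9876 and 8602. No newborn value overlapped, and the differences were -1.79 ± 0.20 (SE) and -2.79 ± 0.20 (SE) log2 units (limma adjusted p = 7.2e-07 and 5.3e-09). A dimmer STBD1 probe set differed by -0.10 from 94 dpc and -1.62 from 28 dpn. ALDH2, the mitochondrial aldehyde dehydrogenase, ranged over 681 to 2416 (median 1254) against 3078 to 4095 (median 3530) and 7999 to 13921 (median 9592) and reached 24341, 30723, 28688 and 22990 at 188 dpn. MYOM2, a protein of the sarcomere's M-band, ranged over 3146 to 15166 (median 8551) against 14264 to 20180 (median 19314) and 32602 to 41128 (median 38367), with 1 newborn value inside the 94 dpc range. GAMT, the last enzyme of creatine synthesis, and IVD, an enzyme of leucine breakdown, had smaller steps of 1.11 and 1.34, or 1.40 and 0.99 on the 2 arrays, and 3 IVD probe sets met the rule over 6 arrays. In the hypoxia list of 20 genes 0 were called higher and 5 lower by the contrast, a share near the background of 19.8%, and ANKRD37, a target of hypoxia-inducible factors, lay below both stages at 26.4 to 159 (median 90.5) against 184 to 417 (median 242) and 193 to 358 (median 254).

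Other leading falls were genes of signalling and membranes. CDC42EP3, an effector of the GTPase Cdc42, ranged over 12.9 to 140 (median 19.1) against 272 to 379 (median 352) and 317 to 578 (median 479). A brighter CDC42EP3 probe set gave -0.38 and -0.55, or -1.37 and -1.54 on replicates 1 and 6. PRKRA, an activator of the RNA-dependent kinase PKR, ranged over 2.80 to 90.9 (median 22.3) against 192 to 279 (median 271) and 181 to 666 (median 417), and a second, brighter probe set met the rule with differences of -1.41 and -1.51, or -2.37 and -2.46 on replicates 1 and 6. NCALD, a neuronal calcium sensor, and FLOT1, a scaffold of membrane microdomains, had smaller steps of 2.50 and 2.37, or 1.23 and 1.31 on the 2 arrays. A further NCALD probe set met the rule (-2.46 and -1.04), but a brighter pair differed from 28 dpn by -0.10 and 0.09. On replicates 1 and 6 the pair gave -1.08 and -0.44. A brighter FLOT1 probe set gave -0.59 and -0.86, or -1.08 and -1.35 on the 2 arrays. BCAR3, an adaptor in integrin signalling, was under background on all 6 newborn arrays and at least 1.33-fold lower than at 94 dpc. A brighter BCAR3 probe set differed by -0.64 from 94 dpc and -0.0004 from 28 dpn, or -1.11 and -0.47 on replicates 1 and 6. Of the 6 newborn values, 5 were under background in CDC42EP3 and in NCALD and 4 in PRKRA. All 14 leading falls met the rule on replicates 1 and 6 and on replicates 2 to 5.

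Some members did not hold on 1 or both of the 2 newborn arrays with even 5′ signal. GABARAP, an autophagy protein, was 19271 and 15437 in replicates 1 and 6 and 3739 to 5071 in replicates 2 to 5, against 13414 to 18617 (median 14791) at 94 dpc, so its contrast turned from -1.14 to 0.18. BHLHE40, a transcription factor of the clock and of hypoxia, turned from -1.27 to 0.01. POLR1D, a subunit of RNA polymerases, was 4476 and 3345 in replicates 1 and 6 and 541 to 913 in the other 4. The translation factor EIF5A and the filament protein synemin, SYNM, were also lower on replicates 2 to 5 than on replicate 1, with smaller steps of 1.91 and 2.22 on replicates 2 to 5. For SYNM only replicate 1 departed, at 6848. Replicate 6, at 975, lay below every value at 94 dpc (1772 to 3497) and 28 dpn (4174 to 8676). On the upper side a probe set of ACTB, cytoplasmic actin, gave 7367 and 9088 against 33293 and 37420 in replicates 4 and 3, and its difference from 28 dpn went from 1.27 to -0.08. Other members were high in single newborn animals. CLPS, a pancreatic colipase, was 3060 in replicate 3, 372 in replicate 4 and 13.9 to 74.2 on the other 4 arrays, and CPB1, another pancreatic enzyme, SST, the hormone somatostatin, and FGG, a fibrinogen chain of liver, were also highest in replicate 3. None of these 4 was called in both steps. Of the genes named by the rule for names, 14 of 41 rises and 18 of 50 falls did not meet the membership rule on replicates 1 and 6. The rises were EF1ALPHA, PCBP2, MPC2, IGFBP1, FABP3, RPL23, RPL13A, PSMA7, TP53INP2, HSPE1, HSPB6, CANX, TXNRD1 and GNAS. The falls were EIF5A, POLR1D, PSME1, GABARAP, PDIA3, P4HA2, BHLHE40, IVD, GHR, TNNT2, MYBPC1, FBN1, COL5A2, SLA-DRB1, FCGR3A, SYNM, CNP and S100B.

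Lists of cells that could be sampled with muscle held called members too: smooth muscle and pericyte genes had 2 of 11 below both stages (RGS5 and SYNM), and Schwann cell and nerve genes 2 of 10 below (S100B and CNP) and 1 above (UCHL1), against a background of 3.27% below and 1.7% above. RGS5 and UCHL1 met the rule on replicates 1 and 6 too, and SYNM, S100B and CNP did not. Cytosolic ribosomal proteins had 0 of 58 genes in the rule by their brightest probe set. By the contrast 26 were called higher (background 15.2%), with a median of 0.29. On replicates 1 and 6 the contrast called 4 higher (background 10.5%), a share that was not above background, with a median of 0.14. Glycolysis (17 genes), thyroid hormone response (14), fast-twitch genes (9), clock genes (9) and the neuromuscular junction (3) also had 0 called members. For glycolysis the median step was 0.51 from 94 dpc and -0.68 from 28 dpn.

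Other probe sets of the member genes, which the rule had not chosen, followed them only in part. Of the 184 genes above, 90 had 143 further probe sets above background, of which 9 met the rule, 60 lay on the same side in both steps and 35 on the opposite side in both. The same-side share was 42.0%, against 26.8% of all named probe sets. Of the 451 genes below, 268 had 426 further probe sets, of which 27 met the rule, 244 lay on the same side and 64 on the opposite side, a same-side share of 57.3% against 40.2%. Genes with at least 2 probe sets in the rule were 9 above, among them ANKRD1, CEBPD, HSP70.2, HSPA9, AARS and MRPL35, and 24 below, among them MDK, MSTN, RBPJ, PRKRA, IVD, CXCL14, FSCN1, CD82 and CCDC80. In 3 of the 9 and 13 of the 24, all those probe sets also met it on replicates 1 and 6. Probe sets of a gene share animals and arrays, and many can cover different transcript ends, so they are no replicates.

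The 4 arrays at 188 dpn were not used by the rule. In 292 of the 345 members above and 653 of the 863 below, the 188 dpn mean lay nearer to 28 dpn than to 1 dpn. The rule had chosen members for a newborn mean far from that of 28 dpn, so these counts may largely follow from the choice. No share over all probe sets is set beside them. By the contrast of 188 dpn with 1 dpn, 252 members above were called lower at 188 dpn (background 15.7% of all probe sets lower) and 540 members below were called higher (background 14.2% higher), although both this contrast and the rule use the newborn arrays. Members above had median log2 levels of 8.38, 9.99, 8.55 and 8.59 at 94 dpc, 1 dpn, 28 dpn and 188 dpn, and members below 8.26, 6.57, 8.14 and 7.89. Between 28 and 188 dpn, 28 members above rose and 36 fell, and 101 members below fell and 39 rose (limma, adjusted p under 0.05; 3.65% of all probe sets rose and 8.2% fell). In 21 members above and 62 below the 188 dpn mean lay beyond the newborn mean. ANKRD1 was such a gene, and UCHL1, a deubiquitinase of nerve and muscle, another, at 1241, 1486, 885 and 1282 against 97.4 to 1206 (median 903) in newborns. The flanking stages themselves were within 0.5 log2 units of each other in 231 members above and 557 below and differed by the test in 71 and 149. These counts too have no share over all probe sets beside them and only describe the members.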

How the data were processed

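Each of 22 animals was measured on 1 array. The deposited values are linear signal intensities per probe set, which the authors computed in GCOS (version 1.1.1, per the submitters' processing notes); after trimming 2.0% at each end, the mean was 500 on every array. No label or header names the other steps. The table holds 24123 probe sets, of which 124 are controls and stayed out of the tests; 10069 of the rest carried 1 gene symbol (6765 genes), 198 several and 13732 none.

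Values were taken as log2(signal + 16) and fitted in limma 3.58.1 (R 4.3.3) with 1 mean per stage over all 22 arrays, and the script was tested on simulated data. Background was 69.7, the 95th percentile of 23 absent bacterial controls. Where all newborn values were under it, a bound stands for the fold. Lists count each gene by its brightest probe set. Genes named were the 14 largest smaller steps each way (called, free of overlap, above background), up to 3 called members per list and 3 probe sets each side of the threshold. Others were chosen after their values were seen. The members and lists were chosen with earlier results of these data known. The planned promoter search was not run, since no sequence was used here. Alternatives covered scaling, pseudocount, dim probe sets, variance model, covariate and arrays left out. The number of arrays limits the precision.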

Additional observations from a re-analysis of the deposited data

Results flagged for a closer look

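Of 364 groups of arrays tested over 91 named probe sets, 24 had 1 array far from the others, by the gap to its nearest neighbour as a share of the group's range (critical values 0.625 for 6 arrays and 0.829 for 4). Chance alone flags about 1 in 20 groups.

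In newborns, replicate 1 was the lowest for COX7A2 (0.673), RPL32 (0.704), RPL13A (0.651) and HSPE1 (0.652), and the highest for SYNM (0.66). This array has even 5′ signal, as has replicate 6, and the part of this in the gaps was not tested. The highest newborn value stood apart in BCAR3 (replicate 4, 0.685) and TYMS (replicate 5, 0.635), both under background.

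At 94 dpc the lowest array stood apart in RPL23 (replicate 3, 0.76), GNAS (replicate 3, 0.634), TYMS (replicate 1, 0.668) and CDKN3 (replicate 1, 0.683), and the highest in MYBPC1 (replicate 2, 0.688). At 28 dpn the lowest stood apart in MDK (replicate 3, 0.753), GAMT (replicate 3, 0.656), COL1A2 (replicate 6, 0.686) and RGS5 (replicate 6, 0.632), and the highest in GHR (replicate 3, 0.631), PAX3 (replicate 5, 0.753) and SYNM (replicate 3, 0.68). At 188 dpn the lowest stood apart in MPC2 (replicate 1, 0.87), ATP5I (replicate 4, 0.957), CANX (replicate 3, 0.93) and FBN1 (replicate 3, 0.878), and the highest in ANGPT2 (replicate 2, 0.854).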

How the results depend on the processing

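Counts of members moved with the scaling, the pseudocount and the newborn arrays used. The 345 probe sets above became 659 with arrays centred on their median, 600 and 229 with pseudocounts of 1 and 64, and 563 on newborn replicates 2 to 5. The 863 below became 566 after quantile normalization, 461 after centring, 1626 and 334 with the 2 pseudocounts, 1401 on replicates 1 and 6, 1295 on replicates 2 to 5, and 568 among probe sets brighter than the median one, where fewer are tested. Members called in both steps went from 297 to 597 (centring) and 484 (replicates 2 to 5) above, and from 782 to 502 (quantile), 404 (centring), 330 (pseudocount 64) and 1201 (replicates 2 to 5) below. By the contrast, 2173 higher became 4009 after centring and 1318 on replicates 1 and 6, and 4527 lower became 2677 after centring. Replicates 1 and 6 with quantile normalization, a setting chosen after seeing the data, gave 765 above and 2115 lower by the contrast. Leaving out each array in turn gave 304 to 421 above and 768 to 1042 below, 253 to 379 and 656 to 974 called in both steps, and 1867 to 2499 higher and 3971 to 4653 lower. Apart from the settings that changed scaling or pseudocount, the causes were not tested.

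Of 91 named probe sets, 71 kept direction and call on replicates 1 and 6, 18 kept direction only, and GABARAP (0.18) and BHLHE40 (0.01) turned. On replicates 2 to 5, 89 kept both and 2 kept direction only. Under the other settings tried, all 91 kept both, or all 77 that were bright enough to be tested. Values near the background of 69.7 carry little information on size, and the number of arrays limits precision. No paired analysis was possible because the labels number the arrays 1 to 22 and give the stages no shared replicate numbers.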
